A study of Mus musculus with 12 samples.

Results

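Mitochondrial pyruvate entry and the citric acid cycle were represented by 33 genes, chosen by name as the members of these pathways and read in both deposited count tables. All 33 were among the 16673 genes that the tables share, and all 33 passed the filter on low counts in every comparison. They encode the mitochondrial pyruvate carrier, the pyruvate dehydrogenase complex with its kinases and phosphatases, pyruvate carboxylase and the malic enzymes, enzymes of the citric acid cycle, and enzymes of the malate-aspartate shuttle. RNA was measured in the left ventricle of male mice in 4 groups of 3 libraries, in a study of the RNA helicase gene Ddx5 in the heart. The constitutive knockout (mCKO) had the genotype DDX5fl/fl MYH6Cre+, was untreated and was sampled at 8 weeks of age. Its control (CTR1) was Ddx5flox/flox of the same age, untreated and without Cre. The inducible knockout (iCKO) was Ddx5flox/flox Myh6MerCreMer and received intraperitoneal tamoxifen at 20 mg/kg/day on 5 days. Its control (CTR2) was Ddx5flox/flox given the same tamoxifen, again without Cre. The design text gives 7 days in connection with the tamoxifen and does not state the day from which they ran, and the labels give no age for these mice in weeks. All 4 groups carried floxed Ddx5 alleles, and the Myh6 promoter is known to drive Cre in cardiomyocytes. Ddx5 was not measured by cell type. Because both controls lacked Cre, loss of Ddx5 and presence of Cre cannot be told apart. Whether the 3 libraries of each group came from different animals is not stated in the labels, so p-values measure the spread between these libraries only.

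Pyruvate made by glycolysis crosses the inner mitochondrial membrane through the carrier formed by Mpc1 and Mpc2. The pyruvate dehydrogenase complex converts it to acetyl-CoA, and is switched off by phosphorylation through the kinases Pdk1 to Pdk4 and switched on again by the phosphatases Pdp1 and Pdp2. Acetyl-CoA joins oxaloacetate through citrate synthase and is oxidised in the citric acid cycle, which supplies most of the reducing equivalents for respiration in the heart. The adult heart burns mainly fatty acids, and the kinase isoforms set how much pyruvate is oxidised beside them.

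Promoter windows of the kinase genes Pdk2 and Pdk3 are shown because these changed in opposite directions in iCKO. That of Got1 is shown because it carries a nuclear receptor core motif. The windows run from 250 bases before to 50 bases after a transcription start and come from RefSeq on GRCm38.p6. Pdk3 is at chrX:93832101-93832400 and Pdk2 at chr11:95041322-95041621, both on the minus strand, and neither window holds either motif searched. Another Pdk2 window, at chr11:95040826-95041125, is not shown and holds neither motif. Got1 is at chr19:43524556-43524855 on the minus strand, with AGGTCA in capitals, 244 bases before the start.
Pdk3: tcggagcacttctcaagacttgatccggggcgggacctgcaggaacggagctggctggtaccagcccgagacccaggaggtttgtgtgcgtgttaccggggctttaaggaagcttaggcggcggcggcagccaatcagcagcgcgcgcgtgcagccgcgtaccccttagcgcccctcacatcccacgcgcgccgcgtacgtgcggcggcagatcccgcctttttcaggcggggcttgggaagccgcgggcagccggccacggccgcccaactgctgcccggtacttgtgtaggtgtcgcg
Pdk2: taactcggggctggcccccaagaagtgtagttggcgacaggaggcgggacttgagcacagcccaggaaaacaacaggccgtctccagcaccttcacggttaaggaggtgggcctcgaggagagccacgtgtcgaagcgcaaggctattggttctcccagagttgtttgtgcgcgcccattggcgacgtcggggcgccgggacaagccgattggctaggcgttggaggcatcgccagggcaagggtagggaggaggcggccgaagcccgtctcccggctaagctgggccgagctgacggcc
Got1: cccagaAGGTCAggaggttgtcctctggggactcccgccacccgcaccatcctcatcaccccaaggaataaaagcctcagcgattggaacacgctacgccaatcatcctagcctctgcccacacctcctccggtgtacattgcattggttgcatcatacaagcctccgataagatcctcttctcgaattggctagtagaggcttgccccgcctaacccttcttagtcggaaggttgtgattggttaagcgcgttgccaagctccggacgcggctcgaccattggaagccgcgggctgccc
Of the 33 genes, 30 had at least 1 window, giving 40 windows in all. None was given for Idh3a, Pdp1 and Me2. On both strands, AGGTCA was found in 8 of the 40 windows (20.0%), against 16.3% of 32851 windows of all genes. The longer motif TNAAGGTCA, which contains AGGTCA, was in 0 of the 40 windows, against 421 of all windows (1.28%). The 8 genes with AGGTCA were Fh1, Got1, Got2, Idh3g, Mpc1, Ogdh, Pcx and Sucla2. A match of letters describes the window and is not a measured binding site. The median GC content was 61.2% in the windows of the 33 genes, against 52.7% in all windows.

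Ddx5 mRNA was measured first, as a check of the labels. It reached 233, 232 and 218 CPM (counts scaled to the TMM-normalised library total) in mCKO ventricles, against 636, 636 and 397 CPM in CTR1 ventricles. It reached 216, 219 and 192 CPM in iCKO ventricles, against 566, 697 and 597 CPM in CTR2 ventricles. Every knockout library was below every control library in both models. Ddx5 was lower by a log2 fold change of -1.57 ± 0.15 in iCKO (standard error, edgeR quasi-likelihood test, Benjamini-Hochberg adjusted p = 0.00017). In mCKO it was -1.29 ± 0.20 without a block (edgeR adjusted p = 0.17) and -1.26 ± 0.12 with the replicate number as a block (edgeR adjusted p = 0.0019). The libraries held between 19682268 and 25871882 gene counts. Libraries number 3 of mCKO and CTR1 stood apart from the other 4 on the leading principal component, which held 59.8% of the variance of that experiment, and genotype separated on the next (22.1%). For iCKO and CTR2, genotype lay on the leading component, with 79.7% of the variance.

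Most mRNAs of the pathway fell in iCKO, and fewer, by less, in mCKO. In iCKO ventricles 28 of the 33 mRNAs fell, 2 rose (Pdk3 and Me2) and 3 did not pass the test (Pdk4, Pcx and Me1), with a median log2 fold change of -1.13 against 0.03 over all 13548 genes tested. In that comparison 19.5% of all genes tested were called lower and 25.2% higher (2648 and 3420 genes; 1832 and 4592 with scaling by library sizes only, which called 27 of the 33 lower and 3 higher). In mCKO ventricles 15 of the 33 fell and the same 2 genes rose when the replicate number was a block, with a median of -0.21 against 0.00 over all 13353 genes; 6.45% of all genes were called lower and 7.32% higher (861 and 978 genes). Scaled by library sizes only, the block fit called 474 genes lower and 1581 higher, with 9 and 3 of the 33. Same-numbered mCKO and CTR1 libraries deviated together (r = 0.464, 0.532 and 0.823). Numbers 1 and 2 also correlated across each other (0.529 and 0.553), so only the libraries number 3 were set apart as a pair. These values do not show whether numbers 1 and 2 each pair with their own number. The replicate number was still taken as the block. Without it, edgeR called 0 genes of the table in mCKO, with 1164 genes and 10 of the 33 at an unadjusted p under 0.05, and the median of the 33 was -0.20. The mCKO calls changed with the libraries in the fit. With both libraries number 3 left out, the block fit called 0 of the 33 and the fit without block called 9 lower (Cs, Idh3b, Idh3g, Ogdh, Dld, Suclg2, Fh1, Pdhx and Me3) and 0 higher. With number 2 left out of both groups, the block fit called 4 lower and 2 higher. Over all genes, too, each of these fits called fewer in both directions than the block fit of all libraries, with counts given in the last section. All 17 genes called with the block kept their direction in each of these fits.

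Summed over the 33 genes, mRNA came to 23396, 24524 and 21533 CPM in mCKO ventricles, against 26870.2, 26754 and 25488 CPM in CTR1 ventricles. It came to 13545, 11477 and 11378 CPM in iCKO ventricles, against 31306, 32448 and 30989 CPM in CTR2 ventricles. The groups did not overlap in either model. Single genes followed: in iCKO the 3 libraries of 29 genes lay below, and of 3 genes above, all CTR2 libraries (27.0% and 31.9% of all genes tested), and only Pdk4 overlapped. In mCKO 17 genes lay below and 2 above all CTR1 libraries (7.3% and 7.69% of all genes tested), and 14 overlapped.

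**Figure D1:**
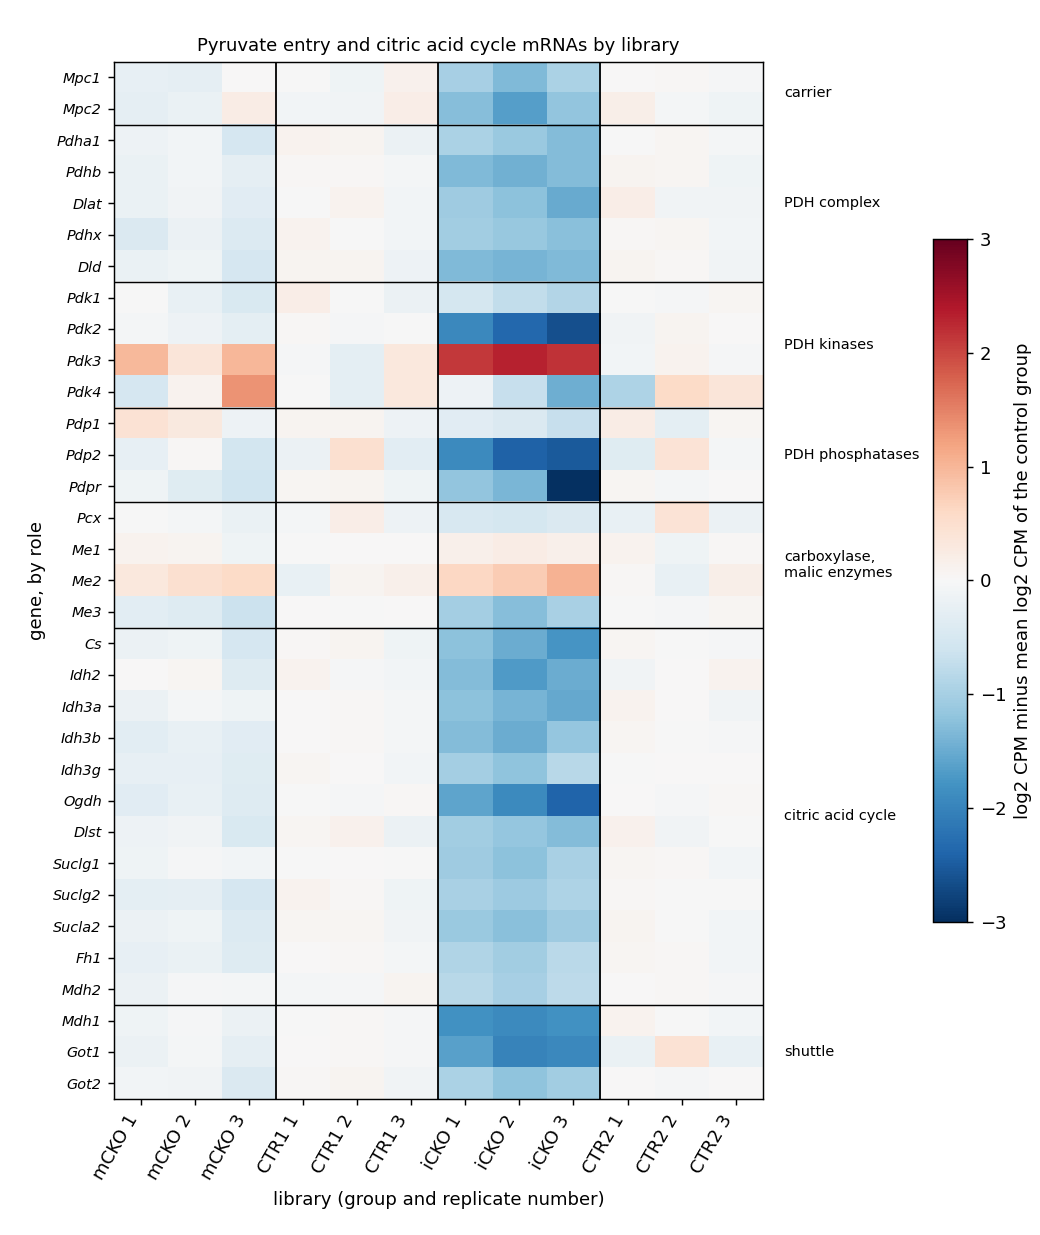
Heat map of log2 CPM of each of the 33 genes (rows, by role) in each of the 12 libraries (columns), minus the mean log2 CPM of the control group of that experiment (CTR1 or CTR2); red is higher and blue lower, on a scale cut at -3 and 3. The 3 iCKO columns are blue for 30 of 33 genes with medians of -1.05, -1.24 and -1.18, the mCKO columns are paler with medians of -0.18, -0.10 and -0.34, and Pdk3 and Me2 are red in all 6 knockout columns.

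The 2 subunits of the mitochondrial pyruvate carrier fell in iCKO and were not called in mCKO. Mpc1 had 166, 132 and 171 CPM in iCKO ventricles, against 330.0, 339.5 and 319 CPM in CTR2 ventricles, a log2 fold change of -1.07 ± 0.16 (edgeR adjusted p = 0.00093). Mpc2 had 108, 83.7 and 116 CPM in iCKO ventricles, against 297, 253 and 241 CPM in CTR2 ventricles (-1.36 ± 0.18, edgeR adjusted p = 0.00055). In mCKO the log2 fold changes were -0.16 ± 0.06 for Mpc1 and -0.07 ± 0.07 for Mpc2 (edgeR with block, adjusted p = 0.11 and 0.51), and the libraries of both genes overlapped with CTR1. Of the exon bases of Mpc1, 23.05% overlap the opposite-strand transcript 4930506C21Rik. The library kit keeps the strand, but the sources used here do not say whether counting used it, so reads of overlapping genes cannot be told apart.

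All 5 genes of the pyruvate dehydrogenase complex fell in iCKO, to a similar extent. Pdha1, the alpha subunit of the E1 enzyme that carries the regulatory phosphorylation sites, had 1034, 919.9 and 815 CPM in iCKO ventricles, against 1999, 2092 and 1930.2 CPM in CTR2 ventricles (-1.12 ± 0.15, edgeR adjusted p = 0.00064). Its partner Pdhb changed by -1.36 ± 0.14, the E2 acetyltransferase Dlat by -1.26 ± 0.18, the E3-binding protein Pdhx by -1.14 ± 0.14 and the E3 dihydrolipoamide dehydrogenase Dld, shared with the 2-oxoglutarate dehydrogenase complex, by -1.35 ± 0.14 (edgeR adjusted p between 0.00021 and 0.00080). In mCKO 4 of the 5 fell with the block. Pdhx had 127, 151 and 129 CPM in mCKO ventricles, against 184, 170.1 and 161 CPM in CTR1 ventricles (-0.34 ± 0.08, edgeR with block, adjusted p = 0.014), with no overlap of groups. Dld (-0.28 ± 0.06), Pdha1 (-0.25 ± 0.06) and Dlat (-0.21 ± 0.06) were also called with the block (edgeR adjusted p = 0.015, 0.022 and 0.042), and Pdhb was not (-0.18 ± 0.06, edgeR adjusted p = 0.073). Dlat did not overlap with CTR1, whereas mCKO library 2 lay within the CTR1 range for Dld, and mCKO libraries 1 and 2 for Pdha1. Map3k15, on the opposite strand, overlaps 16.15% of the exon bases of Pdha1.

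The 4 pyruvate dehydrogenase kinases went different ways. Pdk2, on average the most abundant kinase isoform per kilobase of exon in both control groups and located at chr11:95026258-95041354 on GRCm38, had 222, 165 and 135 CPM in iCKO ventricles, against 789, 894 and 852 CPM in CTR2 ventricles. This was a log2 fold change of -2.28 ± 0.21, or 20.6% of control (edgeR adjusted p = 0.00013), and along with that of Pdp2 the largest decrease of the 33. Pdk3, at chrX:93764607-93832201 and the lowest of the 33 per kilobase in both control groups, rose. It had 15.8, 17.9 and 16.1 CPM in iCKO ventricles, against 3.44, 3.91 and 3.52 CPM in CTR2 ventricles (2.19 ± 0.17, a 4.58-fold increase, edgeR adjusted p = 8.0e-05). In mCKO ventricles Pdk3 had 6.75, 4.42 and 6.85 CPM, against 3.37, 2.82 and 4.26 CPM in CTR1 ventricles. Every mCKO library was above every CTR1 library for Pdk3 (0.78 ± 0.16, edgeR with block, adjusted p = 0.0097; 0.78 ± 0.25 without block, edgeR adjusted p = 0.43). The highest CTR1 library and the lowest mCKO library were 4.26 and 4.42 CPM.

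Pdk2 in mCKO had 529, 495 and 454 CPM, against 566, 541 and 553 CPM in CTR1 ventricles, a log2 fold change of -0.17 ± 0.06 that did not pass the test (edgeR with block, adjusted p = 0.11). Pdk1, an isoform known as a target of hypoxia signalling, fell in iCKO to 203, 175 and 159 CPM, against 292, 286 and 306 CPM in CTR2 ventricles (-0.72 ± 0.15, edgeR adjusted p = 0.0053). In mCKO it fell with the block by 0.24 ± 0.06 on the log2 scale (edgeR adjusted p = 0.029), with overlapping libraries. Pdk4, the isoform induced by fasting and fatty acids, was the most variable of the kinases. It had 148, 227 and 534 CPM in mCKO ventricles, against 209, 171 and 260.5 CPM in CTR1 ventricles. It had 601, 415 and 244 CPM in iCKO ventricles, against 351, 997 and 865 CPM in CTR2 ventricles. The groups overlapped in both models and the test was not passed with all libraries (iCKO -0.81 ± 0.42, edgeR adjusted p = 0.15, 95% interval -1.77 to 0.15; mCKO with block 0.32 ± 0.42, edgeR adjusted p = 0.70). Without CTR2 library 1, the lowest of that group, Pdk4 was called lower in iCKO (-1.15 ± 0.35, edgeR adjusted p = 0.039). Without mCKO library 3, the highest of that group, its value in mCKO was negative (-0.19 ± 0.25 without block, edgeR adjusted p = 0.85).

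Per kilobase of exon, the ratio of Pdk3 to Pdk2 mRNA was 0.0151 ± 0.00383 in mCKO ventricles and 0.00778 ± 0.00158 in CTR1 ventricles (SD, n = 3 each). It was 0.123 ± 0.0310 in iCKO ventricles and 0.00529 ± 0.000168 in CTR2 ventricles. Pdk2 remained the leading isoform among Pdk1 to Pdk3 in iCKO, at 64.6 ± 3.53% of their summed per-length level, against 87.2 ± 0.805% in CTR2 ventricles. In mCKO it held 86.2 ± 0.801%, against 86.2 ± 1.24% in CTR1 ventricles. Pdk1 held 27.5 ± 1.96% of that sum in iCKO ventricles and 12.4 ± 0.814% in CTR2 ventricles, and Pdk3 held 7.88 ± 1.62% and 0.461 ± 0.0166%. With Pdk4 included, Pdk4 held 57.2 ± 6.47% of the 4 isoforms in iCKO ventricles and 39.0 ± 11.6% in CTR2 ventricles, with CTR2 library number 1 at 25.7% and the other CTR2 libraries at 46.9% and 44.3%.

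**Figure D2:**
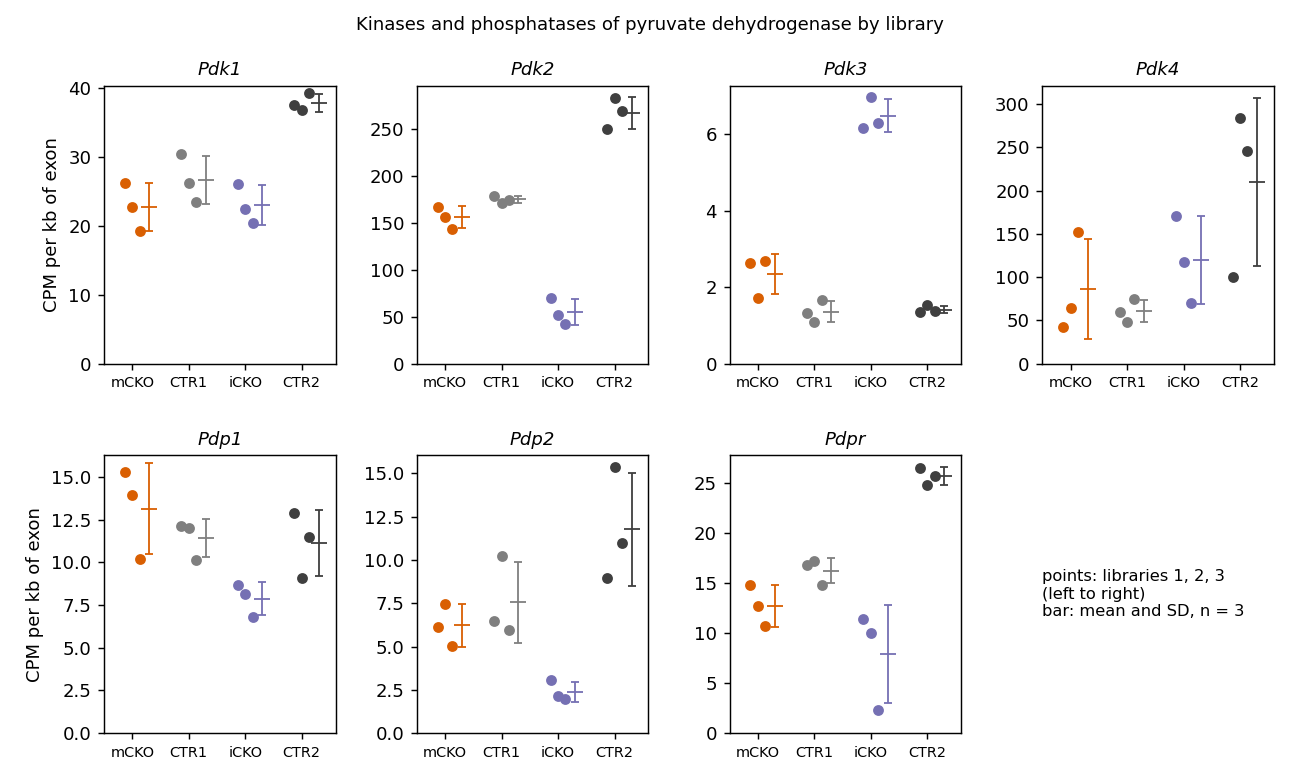
CPM per kilobase of exon (vertical axes, each from 0) of the 4 pyruvate dehydrogenase kinases, the 2 phosphatases and the phosphatase regulatory subunit Pdpr in mCKO, CTR1, iCKO and CTR2 ventricles; points are libraries and the bars beside them the mean and SD of 3. The iCKO points lie far below CTR2 for Pdk2 and Pdp2 and far above for Pdk3, the Pdk4 points overlap in both models, and 1 iCKO point of Pdpr (11.7 CPM) lies apart from the other 2.

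The phosphatases that reactivate the complex were lower in iCKO. Pdp2, the isoform with no need of calcium, had 17.4, 12.2 and 11.3 CPM in iCKO ventricles, against 51.0, 87.4 and 62.4 CPM in CTR2 ventricles (-2.29 ± 0.25, edgeR adjusted p = 0.00029). Pdp1, the calcium-stimulated isoform, had 39.1, 36.7 and 30.6 CPM in iCKO ventricles, against 58.1, 40.8 and 51.7 CPM in CTR2 ventricles. Its change of -0.50 ± 0.18 was near the threshold (edgeR adjusted p = 0.046), and leaving out any 1 of iCKO library 1 or 2 or CTR2 library 1 or 3 put it past 0.05 (edgeR adjusted p between 0.051 and 0.16). The per-length ratio of Pdp1 to Pdp2 was 3.35 ± 0.479 in iCKO ventricles and 1.02 ± 0.425 in CTR2 ventricles. Pdpr, the regulatory subunit that restrains Pdp1, had 57.2, 50.1 and 11.7 CPM in iCKO ventricles, against 133, 125 and 129 CPM in CTR2 ventricles. It changed by -1.70 ± 0.48 (edgeR adjusted p = 0.019) with all libraries and by -1.31 without iCKO library 3, the one that stands apart; without CTR2 library 1 it missed the threshold (edgeR adjusted p = 0.051). In mCKO, Pdpr had 74.4, 63.6 and 53.6 CPM, against 84.2, 86.2 and 74.4 CPM in CTR1 ventricles, and was the only one of the 3 called with the block (-0.36 ± 0.07, edgeR adjusted p = 0.0089). Pdp1 was at 0.19 ± 0.08 and Pdp2 at -0.26 ± 0.08 in mCKO (edgeR with block, adjusted p = 0.13 and 0.059).

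All 12 enzymes of the citric acid cycle measured fell in iCKO, by between 0.87 and 1.93 on the log2 scale, and 8 of the 12 fell in mCKO with the block, by between 0.23 and 0.36. Cs, citrate synthase, which opens the cycle, had 1053, 876 and 719 CPM in iCKO ventricles, against 2549.8, 2446 and 2385 CPM in CTR2 ventricles (-1.48 ± 0.17, edgeR adjusted p = 0.00037). In mCKO it had 1943, 1985 and 1536 CPM, against 2246, 2301 and 1996 CPM in CTR1 ventricles (-0.27 ± 0.06, edgeR with block, adjusted p = 0.016). All mCKO libraries of Cs were below all CTR1 libraries, by a margin of 1985 to 1996 CPM at the closest. Ogdh, the E1 enzyme of the 2-oxoglutarate dehydrogenase complex, changed most of the 12 in iCKO. It had 1532, 1215 and 864 CPM in iCKO ventricles, against 4573, 4478 and 4665 CPM in CTR2 ventricles (-1.93 ± 0.21, edgeR adjusted p = 0.00031). In mCKO, Ogdh had 2615, 2815 and 2539.8 CPM, against 3280.1, 3233 and 3394 CPM in CTR1 ventricles (-0.31 ± 0.06, edgeR with block, adjusted p = 0.0073). Its E2 partner Dlst changed by -1.17 ± 0.15 in iCKO and -0.23 ± 0.06 in mCKO (edgeR adjusted p = 0.00055, and with block 0.024). The mCKO libraries 1 and 2 of Dlst (840 and 869 CPM) lay within the CTR1 range of 823 to 1019 CPM.

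The NAD-dependent isocitrate dehydrogenase has a catalytic alpha subunit and regulatory beta and gamma subunits. Idh3a, the catalytic one, had 346, 309.7 and 283 CPM in iCKO ventricles, against 872, 819 and 756 CPM in CTR2 ventricles (-1.38 ± 0.15, edgeR adjusted p = 0.00028). In mCKO, Idh3a was at -0.13 ± 0.06 and was not called (edgeR with block, adjusted p = 0.19), although its 3 mCKO libraries lay below CTR1. The regulatory Idh3b and Idh3g fell in both models, by 1.32 ± 0.15 and 1.01 ± 0.15 in iCKO and by 0.29 ± 0.06 and 0.28 ± 0.06 in mCKO (edgeR adjusted p = 0.00031 and 0.0011, and with block 0.0086 and 0.011). Idh2, the NADP-dependent enzyme of the mitochondrial matrix, was the most abundant of the 33 per kilobase in CTR2 and iCKO ventricles. It had 1475, 1125 and 1287 CPM in iCKO ventricles, against 3354, 3667 and 3875 CPM in CTR2 ventricles (-1.49 ± 0.16, edgeR adjusted p = 0.00025). In mCKO its libraries overlapped with CTR1 (-0.11 ± 0.07, edgeR with block, adjusted p = 0.37).

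Succinyl-CoA synthetase, the step of the cycle that makes a nucleoside triphosphate directly, fell in all 3 of its subunits in iCKO. The changes were -1.08 ± 0.15 for the shared alpha subunit Suclg1, -1.13 ± 0.14 for the ADP-forming beta subunit Sucla2 and -0.997 ± 0.13 for the GDP-forming beta subunit Suclg2 (edgeR adjusted p = 0.00067, 0.00046 and 0.00067). In mCKO, Suclg2 had 159.7, 162 and 138 CPM, against 210.0, 199 and 179 CPM in CTR1 ventricles (-0.36 ± 0.06, edgeR with block, adjusted p = 0.0040), with no overlap. Sucla2 also fell with the block (-0.24 ± 0.06, edgeR adjusted p = 0.028) and Suclg1 was at -0.09 ± 0.06 (edgeR adjusted p = 0.39). Fh1, fumarase, had 295, 268 and 312 CPM in iCKO ventricles, against 569.6, 560.4 and 522 CPM in CTR2 ventricles (-0.92 ± 0.14, edgeR adjusted p = 0.0013). In mCKO, Fh1 had 495, 513 and 454 CPM, against 598, 605 and 564 CPM in CTR1 ventricles (-0.27 ± 0.06, edgeR with block, adjusted p = 0.014). Mdh2, the mitochondrial malate dehydrogenase that closes the cycle, had the smallest change of the 12 in iCKO, with 1027, 919 and 1056 CPM in iCKO ventricles, against 1829, 1873 and 1770.3 CPM in CTR2 ventricles (-0.87 ± 0.14, edgeR adjusted p = 0.0014). In mCKO it was at -0.09 ± 0.06 with overlapping libraries (edgeR with block, adjusted p = 0.37).

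The malate-aspartate shuttle carries reducing equivalents from the cytosol into mitochondria with a cytosolic and a mitochondrial form of each of its enzymes. Mdh1, the cytosolic malate dehydrogenase, had 846, 791 and 836 CPM in iCKO ventricles, against 3165, 2945 and 2786 CPM in CTR2 ventricles (-1.85 ± 0.14, edgeR adjusted p = 7.9e-05). Got1, the cytosolic aspartate aminotransferase, had 609, 464 and 487 CPM in iCKO ventricles, against 1627, 2512 and 1603 CPM in CTR2 ventricles (-1.88 ± 0.22, edgeR adjusted p = 0.00038). The second CTR2 library of Got1 was high, and without it the change was -1.64. Got2, the mitochondrial aminotransferase, changed by -1.07 ± 0.14 (edgeR adjusted p = 0.00059). Both cytosolic forms had a more negative log2 fold change than their mitochondrial partners, by value. The per-length ratio of Mdh1 to Mdh2 was 1.15 ± 0.0481 in iCKO ventricles and 2.26 ± 0.126 in CTR2 ventricles (SD, n = 3 each). The ratio of Got1 to Got2 was 1.33 ± 0.108 in iCKO ventricles and 2.35 ± 0.677 in CTR2 ventricles. In mCKO ventricles the ratios were 2.03 ± 0.128 and 2.05 ± 0.199, against 2.06 ± 0.152 and 1.998 ± 0.0782 in CTR1 ventricles. None of the 3 genes was called in mCKO (-0.11 to -0.21, edgeR with block, adjusted p between 0.058 and 0.20). Opposite-strand genes overlap 8.997% of the exon bases of Got2 (Gm45760) and 2.03% of those of Mdh1 (Wdpcp).

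Pyruvate carboxylase and the malic enzymes, which feed and drain the cycle at oxaloacetate and malate, split. Me2, the NAD-dependent malic enzyme of mitochondria, rose in both models. It had 14.5, 16.4 and 17.5 CPM in mCKO ventricles, against 10.1, 12.4 and 13.0 CPM in CTR1 ventricles (0.45 ± 0.10, edgeR with block, adjusted p = 0.014; 0.45 ± 0.14 without block, edgeR adjusted p = 0.43). It had 18.3, 20.4 and 24.6 CPM in iCKO ventricles, against 12.2, 10.3 and 13.6 CPM in CTR2 ventricles (0.81 ± 0.18, edgeR adjusted p = 0.0074). Groups did not overlap in either model. Me3, the NADP-dependent mitochondrial malic enzyme, fell in both. It had 98.4, 93.4 and 78.4 CPM in mCKO ventricles, against 123, 121 and 124 CPM in CTR1 ventricles (-0.45 ± 0.08, edgeR with block, adjusted p = 0.0034). It had 59.0, 49.4 and 60.8 CPM in iCKO ventricles, against 119, 116 and 125 CPM in CTR2 ventricles (-1.09 ± 0.14, edgeR adjusted p = 0.00057). The per-length ratio of Me2 to Me3 was 0.367 ± 0.0765 in mCKO ventricles and 0.194 ± 0.0252 in CTR1 ventricles, and 0.758 ± 0.114 in iCKO ventricles and 0.202 ± 0.0212 in CTR2 ventricles. Me1, the cytosolic malic enzyme, was at 0.02 ± 0.07 in mCKO and 0.18 ± 0.14 in iCKO (edgeR adjusted p = 0.87 with block and 0.31). Pcx, pyruvate carboxylase, had 65.4, 62.8 and 67.8 CPM in iCKO ventricles, against 78.0, 120.4 and 80.2 CPM in CTR2 ventricles. The groups of Pcx did not overlap in iCKO but the test was not passed (-0.51 ± 0.19, edgeR adjusted p = 0.057), and in mCKO it was at -0.08 ± 0.07 (edgeR with block, adjusted p = 0.52).

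**Figure D3:**
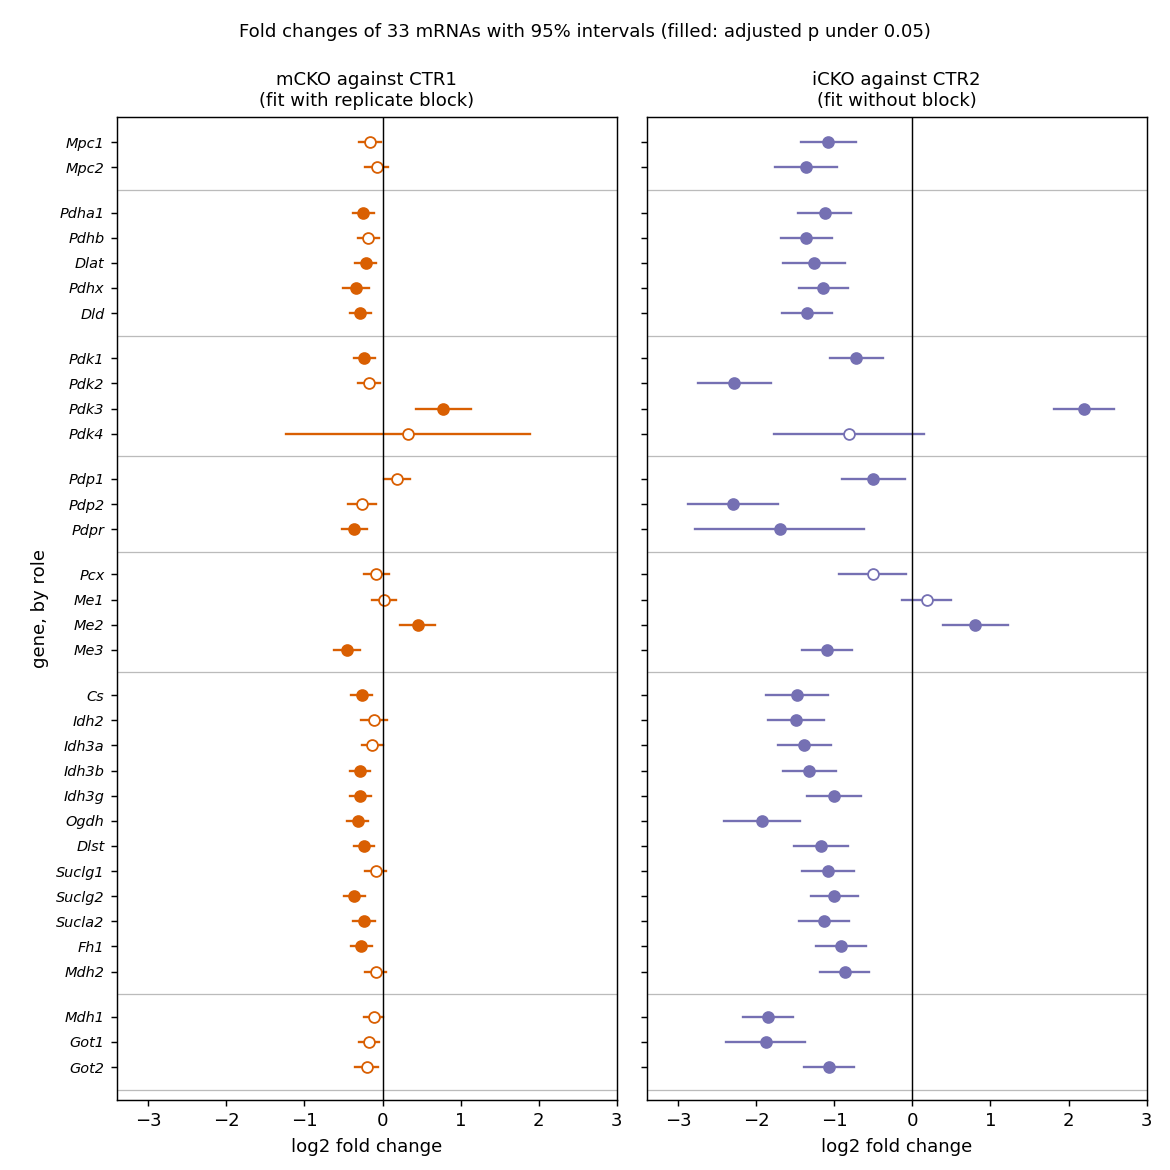
Log2 fold change (horizontal axes) of the 33 genes by role in mCKO against CTR1, from the fit with replicate block, and in iCKO against CTR2, from the fit without block; lines are 95% intervals and filled points passed an adjusted p of 0.05. In iCKO all filled points but Pdk3 and Me2 lie left of 0, between -2.29 and -0.50, and in mCKO the filled points left of 0 lie between -0.45 and -0.21.

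The difference between the models was tested in 1 fit of all 12 libraries, as the mCKO effect minus the iCKO effect, so a positive value means a less negative change in mCKO. Of the 33 genes 25 were called with a positive difference and 1, Pdk3, with a negative one, with a median of 0.97 against 0.03 over 13871 genes; 11.0% of all genes were called positive and 9.88% negative (1521 and 1371 genes; 1103 and 2145 with scaling by library sizes only, with 25 and 1 of the 33). The largest differences were 2.16 ± 0.22 for Pdk2, 2.05 ± 0.37 for Pdp2, 1.77 ± 0.16 for Mdh1, 1.75 ± 0.25 for Got1 and 1.66 ± 0.23 for Ogdh (edgeR adjusted p = 0.00012, 0.0029, 5.4e-05, 0.00084 and 0.00062). Pdk3 differed by -1.37 ± 0.29, the larger increase being in iCKO (edgeR adjusted p = 0.0071). Me3 (0.68 ± 0.18, edgeR adjusted p = 0.020) missed the threshold when any of 6 single libraries was left out (0.56 to 0.63), and Suclg2 (0.58) and Fh1 (0.59) without mCKO library 2. In the block fits without 1 number of mCKO and CTR1, between 3 and 6 of the 26 called genes were lost, Idh3g, Suclg2 and Fh1 each time. The 7 genes not called were Pdk1, Pdk4, Pdp1, Pdpr, Pcx, Me1 and Me2. With the replicate block Pdk1, Pdp1 and Pdpr were called as well (edgeR adjusted p = 0.043, 0.024 and 0.042), giving 28 positive and 1 negative, where 14.8% and 13.3% of all genes were called. For Me2, which rose in both models, the difference was -0.33 ± 0.24 with a 95% interval of -0.85 to 0.20. The models differ in the form of Cre (Cre or MerCreMer, both under Myh6) and in whether the deletion was constitutive or induced. They also differ in tamoxifen and in the count table they stand in, and an age is given only for mCKO and CTR1. These differences cannot be told apart. Of the 15 genes that fell in both models 13 had a called difference, the exceptions being Pdk1 and Pdpr. Of the 13 that passed the test in iCKO and not in mCKO 12 had one, the exception being Pdp1. These counts take the mCKO calls with the block, and the iCKO and difference calls without it. In the block fit of the difference Pdk1, Pdpr and Pdp1 were called too.

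Other genes of the same pathways were read from lists described by counts only. Beside these counts, 19.5% of all genes tested were called lower and 25.2% higher in iCKO. In mCKO with the block the shares were 6.45% and 7.32%. Of 14 remaining cycle genes, among them succinate dehydrogenase with its assembly factors, cytosolic isocitrate dehydrogenase, related dehydrogenases and the transhydrogenase Nnt, 10 fell in iCKO and 4 in mCKO with the block, with medians of -1.11 and -0.17. Those that fell in iCKO included Ogdhl, a paralogue of Ogdh (-3.004 ± 0.24), Nnt (-2.43 ± 0.21) and Sdha, the flavoprotein subunit of succinate dehydrogenase (-1.36 ± 0.15), with edgeR adjusted p between 8.5e-05 and 0.00028. In mCKO the 4 were Sdha (-0.37 ± 0.06), Nnt (-0.48 ± 0.08), Sdhb (-0.26 ± 0.06) and Idh1 (-0.25 ± 0.07), with edgeR adjusted p between 0.0024 and 0.036 in the block fit. Of 7 genes for the lipoate that the dehydrogenase complexes need, 2 fell in iCKO, Oxsm and Mecr (-0.75 ± 0.18 and -0.63 ± 0.20), and 2 in mCKO, Mcat and Mecr (-0.32 ± 0.07 and -0.38 ± 0.10). Of 11 tested neighbouring enzymes of lactate, alanine, acetate, glutamate and phosphoenolpyruvate metabolism, 5 fell in iCKO, among them the alanine aminotransferase Gpt (-2.55 ± 0.22), the acetyl-CoA synthetase Acss1 (-2.33 ± 0.24), the lactate dehydrogenase subunit Ldhb (-1.57 ± 0.16) and the D-lactate dehydrogenase Ldhd (-0.76 ± 0.14). In mCKO 4 fell, Ldhd (-0.68 ± 0.07), Acss1 (-0.59 ± 0.07), the glutamate dehydrogenase Glud1 (-0.31 ± 0.06) and Gpt2 (-0.33 ± 0.08).

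Carriers, regulators and other mitochondrial genes were counted against the same shares of all genes tested. These were 19.5% lower and 25.2% higher in iCKO, and 6.45% and 7.32% in mCKO with the block. Among 8 tested carriers, 4 fell and 2 rose in iCKO. Slc16a3, the plasma membrane lactate exporter, rose by 3.28 ± 0.27 and Slc25a1, the mitochondrial citrate carrier, by 1.14 ± 0.22 (edgeR adjusted p = 9.7e-05 and 0.0041). The oxoglutarate carrier Slc25a11 and the aspartate-glutamate carrier Slc25a13, both parts of the malate-aspartate shuttle, changed by -1.997 ± 0.15 and -1.52 ± 0.15 (edgeR adjusted p = 7.9e-05 and 0.00018), and Slc25a12, the other aspartate-glutamate carrier, by -0.97 ± 0.17 (edgeR adjusted p = 0.0025). In mCKO only Slc25a11 of the 8 was called (-0.25 ± 0.06, edgeR with block, adjusted p = 0.021). Of 14 transcriptional regulators known to act on Pdk4 or on cycle genes, 8 fell and 1 rose in iCKO. Those that fell included the oestrogen-related receptors Esrrb (-2.02 ± 0.23) and Esrra (-1.22 ± 0.14), Klf15 (-1.95 ± 0.23) and the fatty acid receptor Ppara (-1.84 ± 0.27), and the hypoxia factor Hif1a rose (1.04 ± 0.21), with edgeR adjusted p between 0.00032 and 0.0043. In mCKO 2 of the 14 fell, Esrra (-0.47 ± 0.07) and Ppara (-0.34 ± 0.08), with edgeR adjusted p of 0.0016 and 0.018 in the block fit. Of 15 genes for import, pores and upkeep of mitochondria, 7 fell and 1 rose in iCKO with a median of -0.34, the largest fall being Vdac1 (-1.26 ± 0.14, edgeR adjusted p = 0.00031). In mCKO 4 of the 15 fell with the block, with a median of -0.12.

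Markers of cell types also changed, in directions that differed between types, and their part in the result was not tested. In bulk tissue, fewer cells of a type and less RNA per cell cannot be told apart. Over all genes tested, 19.5% were called lower and 25.2% higher in iCKO, and 6.45% and 7.32% in mCKO with the block. The summed level of 10 cardiomyocyte markers was between 50409 and 60078 CPM in iCKO ventricles, against 101142 to 113300 CPM in CTR2 ventricles. It was between 73025 and 101368 CPM in mCKO ventricles, against 85587 to 115960 CPM in CTR1 ventricles. Of the 10, 8 fell in iCKO with a median of -1.09, close to the median of -1.13 of the pathway, while Tnnt2 and Actc1 were not called. In mCKO 6 of the 10 fell with the block, with a median of -0.22. All 7 macrophage markers rose in both models (in mCKO with the block), to sums of 428 to 642 CPM in mCKO ventricles, against 316 to 396 CPM in CTR1 ventricles, and 538 to 984 CPM in iCKO ventricles, against 210.3 to 269 CPM in CTR2 ventricles. Of 7 fibroblast markers 4 rose and 1 fell in iCKO, with sums of 3044 to 4896 CPM, against 856 to 1002 CPM in CTR2 ventricles, and 3 rose in mCKO with the block, with sums of 1048 to 1864 CPM, against 934 to 1563 CPM in CTR1 ventricles. Of 6 endothelial markers 4 fell in iCKO (669 to 841 CPM, against 1096 to 1329 CPM in CTR2) and 0 were called in mCKO (1050.3 to 1790.3 CPM, against 1050.5 to 1800.4 CPM in CTR1). The 4 atrial markers summed to 4027 to 8136 CPM in iCKO ventricles, against 124 to 336 CPM in CTR2 ventricles, and to 671 to 1612 CPM in mCKO ventricles, against 149 to 341 CPM in CTR1 ventricles. Sln was at 0 in every mCKO library. Of 3 atrial markers tested, Nppa and Myl4 rose in iCKO, and the remaining one was at -0.28 and not called. In mCKO with the block only Nppa rose, and the 2 others were negative, the lowest at -2.25, and not called. The atrial sums do not show these different directions. The 8 adipocyte markers summed to 230.0 to 441 CPM in iCKO ventricles, against 502 to 516 CPM in CTR2 ventricles, and to 385 to 732 CPM in mCKO ventricles, against 401 to 876 CPM in CTR1 ventricles. Only 1 of the 8 adipocyte markers, Fabp4, passed the filter on low counts in iCKO, and it was called lower (-0.73). In mCKO 3 were tested and 0 were called with the block. Ucp1 was at 0 in all CTR1 and CTR2 libraries and Lep in all iCKO and CTR2 libraries. The 6 skeletal muscle markers summed to 35.9 to 61.1 CPM in iCKO ventricles, against 1.62 to 2.83 CPM in CTR2 ventricles, and to 5.63 to 8.36 CPM in mCKO ventricles, against 2.25 to 3.03 CPM in CTR1 ventricles, and Myh1 and Myh4 were at 0 in all mCKO, CTR1 and iCKO libraries.

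**Figure D4:**
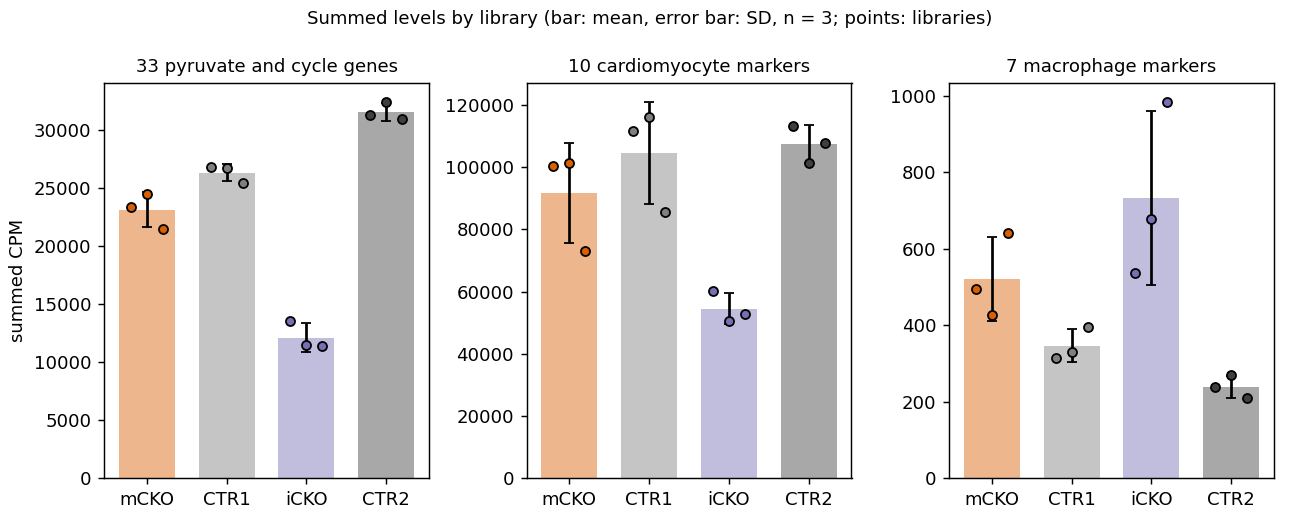
Summed CPM (vertical axes, from 0) of the 33 genes, of 10 cardiomyocyte markers and of 7 macrophage markers in mCKO, CTR1, iCKO and CTR2 ventricles; bars are means, error bars the SD of 3 libraries and points the libraries. The pathway sum is lowest in iCKO (11378 to 13545 CPM), as is the cardiomyocyte sum (50409 to 60078 CPM), and the macrophage sum is higher in both knockouts than in their controls.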

How the data were processed

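Poly(A) RNA of left ventricles was sequenced from libraries made with a stranded mRNA kit, per the labels' protocols. The submitters' processing notes name HISAT2, DESeq and GRCm38 without versions; neither these nor the labels give the counting tool or annotation. Raw gene counts were deposited by the authors in 1 table for mCKO and CTR1 (17260 genes) and 1 for iCKO and CTR2 (17325 genes), of which 16673 are shared. Library totals were 19682268 to 25871882 counts, so that the floor of 3 counts was 0.106 to 0.157 CPM, which covers counting error only.

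Each experiment was tested with edgeR 4.0.16 in R 4.3.3 (quasi-likelihood F test, robust, TMM scaling, filterByExpr with a minimum count of 10 and total of 15). The difference between models was the interaction in 1 fit of all 12 libraries over genes in both tables. P-values were adjusted by Benjamini-Hochberg over all genes tested, and genes were called at 0.05; errors of log2 fold changes are standard errors. CPM are TMM-scaled within an experiment, since the tables were normalized separately. CPM per kilobase used the exon union of GENCODE M21 on GRCm38. Deviations of same-numbered mCKO and CTR1 libraries from their group means correlated (r = 0.464, 0.532 and 0.823), so the replicate number was taken to pair them and block values are given, although numbers 1 and 2 also correlated across each other (0.529 and 0.553). Without the block edgeR stayed the first fit of that comparison. Alternatives were other scalings, no filter, DESeq2 1.42.0, the block, and leaving out libraries. The fits were also run on simulated counts. These held no shift between replicate numbers, so they cannot test the choice of block.

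The 33 genes, the lists and the markers were chosen with earlier results of these data known. All 33 are accounted for, those called by a fit with full statistics. From other lists up to 4 called genes with the smallest adjusted p are named per comparison, except 1 that is not reported here; Slc25a1 and Hif1a were named after their values were seen.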

Additional observations from a re-analysis of the deposited data

Results flagged for a closer look

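For 26 of the 33 genes the mCKO effect and the iCKO effect differed in the test of the difference itself (edgeR, Benjamini-Hochberg adjusted p between 5.4e-05 and 0.020). Of all 13871 genes tested, 11.0% were called with a positive difference and 9.88% with a negative one. Each value below is the log2 fold change in mCKO minus that in iCKO. Among the cycle enzymes it was 1.26 for Cs, 1.43 for Idh2, 1.29 for Idh3a, 1.06 for Idh3b, 0.76 for Idh3g, 1.66 for Ogdh, 0.97 for Dlst, 1.03 for Suclg1, 0.67 for Suclg2, 0.93 for Sucla2, 0.68 for Fh1 and 0.81 for Mdh2. In the pyruvate dehydrogenase complex it was 0.92 for Pdha1, 1.21 for Pdhb, 1.08 for Dlat, 0.84 for Pdhx and 1.11 for Dld. Among its regulators it was 2.16 for Pdk2, -1.37 for Pdk3 and 2.05 for Pdp2. It was 0.95 for Mpc1 and 1.33 for Mpc2 of the carrier. In the malate-aspartate shuttle it was 1.77 for Mdh1, 1.75 for Got1 and 0.91 for Got2, and for the malic enzyme Me3 it was 0.68. Me3, Suclg2 and Fh1 missed the threshold when single libraries were left out. The only negative value was that of Pdk3, which rose more in iCKO.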

How the results depend on the processing

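All 17 genes of the 33 called with the block in mCKO, all 30 called in iCKO and all 26 with a called difference kept their direction in every alternative run. In mCKO against CTR1, 0 genes were called under the first fit, DESeq2 size factors or library sizes only. The replicate block called 978 genes higher and 861 lower, with 2 and 15 of the 33. With no filter 3 and 1 genes were called, and DESeq2 called 176 and 134, with 3 of the 33 lower. The block with library sizes only called 1581 and 474, with 3 and 9 of the 33, and the block with DESeq2 499 and 548, with 15 of the 33 lower and without Pdk3 and Me2. The block without libraries number 1 called 766 and 742 (2 and 13 of the 33), without number 2 646 and 447 (2 and 4), and without number 3 218 and 170 (0 of the 33). No block without number 3 called 514 and 526, with 9 of the 33 lower. Leaving out 1 library without a block called 0 to 1 genes higher. The genes whose sign turned in mCKO were never called there. Leaving out 1 library, log2 fold changes ran from -0.18 to 0.0220 for Idh2, -0.19 to 0.83 for Pdk4, -0.15 to 0.0143 for Pcx, -0.24 to 0.0444 for Mpc2 and -0.0203 to 0.10 for Me1. Mpc2 was at 0.0125 with library sizes only and 0.00104 with the block added. Me1 was at -0.0337 and -0.0102 in the block without number 1 and 2, and Pdk4 at -0.0426 and -0.0183 without number 3, with and without the block.

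In iCKO the replicate numbers did not pair the libraries (r = 0.0583, -0.0896 and -0.161), and the block called 27 of the 33 lower, Pdp1 being lost. The median of the 33 was -0.92 with library sizes only, with or without the block (1612 genes lower with it), where the median of all genes was 0.24 without the block. It was -1.22 for the block without number 3. The block without number 2 called 1 of the 33 higher. Leaving out 1 library called 27 to 29 of the 33 lower. Of the 3 genes not called, Pcx was called with DESeq2, with its size factors, without iCKO library 3 and in the block without number 3. Pdk4 was called without CTR2 library 1, in the block with DESeq2 and in the block without number 1, and Me1 with library sizes only.

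For the difference, library sizes only gave 2145 genes negative and a median of 0.80 (median of all genes -0.14), and with the block 2719 and 0.80. Leaving out 1 library gave 910 to 1615 genes negative and 22 to 27 of the 33 positive; Me3 was lost in 6 of these 12 fits (without mCKO 1 or 2, CTR1 1 or 2, iCKO 2 or CTR2 3), and Suclg2 and Fh1 without mCKO 2. The block without mCKO and CTR1 number 1 gave 989 genes positive and lost Idh3g, Suclg2, Fh1 and Me3. Without number 2 it gave 999 and lost these, Mdh2 and Pdhx, and without number 3 it lost Idh3g, Suclg2 and Fh1. The block without iCKO and CTR2 number 3 gave 2656 positive and 2187 negative. For these changes the cause was not tested beyond the fewer libraries in the fits that leave some out. With 3 libraries a group, all 17 mCKO block calls among the 33, Pdk3 included, passed the test only in some fits.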
